A study of Homo sapiens with 13 samples.

Results

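The response of preconditioned AC16 cells to FCCP was read from 7 messenger RNA libraries, 3 labelled Preconditioning+FCCP and 4 labelled Preconditioning, out of 13 in the series. They were chosen by the treatment given in the labels, and every gene tested was compared between them. AC16 is a human cell line that arose from the fusion of ventricular cardiomyocytes of adults with an immortal fibroblast. FCCP, a protonophore, is a small molecule that carries protons across the inner mitochondrial membrane and so uncouples electron transport from ATP synthesis. Per the series title and design text, the mitochondria were preconditioned by an optogenetic construct, mOpto. Every library is labelled wildtype in its genotype field. The labels give no FCCP dose, exposure time or light regime, and they do not say whether the cells without preconditioning carried the construct. The other 6 libraries, 3 control and 3 FCCP without preconditioning, entered the fit and served to test where the FCCP effect differed. The labels do not state that replicates were grown as separate cultures. The p-values thus reflect the spread between libraries, which may be technical.

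The 7 libraries held 15537681 to 20636229 counts in genes. Preconditioning+FCCP 3 stood apart: 8.28% of its reads aligned to several places, against 3.16% to 5.22% in the other 6, and mitochondrially encoded genes made up 6.42% of its gene counts, against 1.00% to 2.32%. Results are therefore given with and without that library where it bears on them. Of 24 genes that mark heart muscle cells, 9 passed the expression filter, and the myosin genes MYH7 and MYL2, the troponin T gene TNNT2, MYBPC3 and KCNQ1 had no count in any of the 7 libraries. The sarcomere genes MYH7, MYL2, TNNT2 and MYBPC3 were thus not detected in these libraries, but others passed the filter. Levels are given in CPM, which are gene counts scaled to the size of the library. The sarcomere gene TTN had 4.20 to 8.12 CPM with preconditioning and 2.54 to 4.52 CPM with FCCP added. ACTN2, TNNI3 and ACTC1 reached at most 2.30, 0.345 and 0.576 CPM with preconditioning and 1.64, 1.36 and 1.02 CPM with FCCP added. How strand was treated in the read counting is not known here. Levels are therefore less certain for genes that overlap others or have antisense partners (EPB41L4A-AS1, ZFAS1, HAS2) and for those with near-identical copies (HSPA1A, ribosomal protein, histone, metallothionein and mitochondrial genes).

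A drop in mitochondrial membrane potential is known to reach the nucleus by several routes. In the integrated stress response (ISR), kinases phosphorylate the translation factor eIF2α, general protein synthesis falls, and translation of the transcription factor ATF4 rises. ATF4, often with CHOP (encoded by DDIT3), then drives genes of amino acid supply and redox balance. Sterol synthesis is set by SREBP factors, which are released from the endoplasmic reticulum when sterols are low and bind promoters together with NF-Y. Immediate early genes such as FOS and EGR1 are switched on within minutes of calcium, growth factor or stress signals, without new protein synthesis, through promoter elements bound by CREB, ATF and SRF.

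The promoters of some of the genes described here carry sequences related to the elements of these factors. They were taken from RefSeq promoters on GRCh38.p14, of which the 250 bases before the start were searched on both strands. The motifs were picked after several had been tried, so the counts are descriptions only. In the sterol synthesis genes, the letters GATTGGC, which hold the box bound by NF-Y, occurred in 10 of the 15 members with a promoter entry, against 6.17% of 35116 promoters. Shown in capitals, within up to 50 bases on each side, are the matches of 3 genes that fell, which in FDPS is the reverse complement:
HMGCS1, chr5:43313457-43313563, minus strand: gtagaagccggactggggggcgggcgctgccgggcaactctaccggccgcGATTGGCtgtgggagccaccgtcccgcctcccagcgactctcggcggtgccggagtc
DHCR7, chr11:71448394-71448492, minus strand: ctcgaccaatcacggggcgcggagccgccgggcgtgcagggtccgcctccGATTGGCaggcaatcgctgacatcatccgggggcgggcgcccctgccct
FDPS, chr1:155308693-155308799, plus strand: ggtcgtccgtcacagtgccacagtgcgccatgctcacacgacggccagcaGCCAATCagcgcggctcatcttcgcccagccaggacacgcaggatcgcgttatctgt
The letters TGATGNAA (TTNCATCA on the other strand), the core of the composite C/EBP-ATF element, occurred in 12 of 52 members of the ISR, amino acid and ATF4 output lists with an entry, against 3.14% of promoters. Among the 12, BCAT1 (-1.06) and MTHFD1L (-0.74) fell, SLC1A3 was not called and FGF21 was not tested. The matches of 3 genes that rose are in capitals:
CHAC1, chr15:40953221-40953319, plus strand: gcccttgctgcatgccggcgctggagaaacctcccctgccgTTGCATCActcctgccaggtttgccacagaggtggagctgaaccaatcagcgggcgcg
GOT1, chr10:99430765-99430872, minus strand: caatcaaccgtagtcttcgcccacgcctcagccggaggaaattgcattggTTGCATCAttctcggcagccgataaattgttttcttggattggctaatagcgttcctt
ATF3, chr1:212565166-212565273, plus strand: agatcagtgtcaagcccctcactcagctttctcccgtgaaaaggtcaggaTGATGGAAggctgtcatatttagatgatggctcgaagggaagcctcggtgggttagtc
The letters TGACGTNA (TNACGTCA on the other strand), the cyclic AMP response element, occurred in 5 of 17 immediate early genes with an entry, against 2.67% of promoters. FOSL2 is among the 5 and fell (-1.32). The letters are in capitals in the promoters of 2 genes that rose:
FOSB, chr19:45467886-45467993, plus strand: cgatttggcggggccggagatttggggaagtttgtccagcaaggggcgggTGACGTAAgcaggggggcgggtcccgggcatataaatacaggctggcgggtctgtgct
EGR1, chr5:138465291-138465398, plus strand: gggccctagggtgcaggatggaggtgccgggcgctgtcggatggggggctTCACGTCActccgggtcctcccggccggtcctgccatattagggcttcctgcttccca
A match is a string of letters and not evidence of binding.

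FCCP in preconditioned cells was accompanied by a change in 6594 of 16756 genes tested (39.4%), of which 3383 were higher (20.2%) and 3211 lower (19.2%) than with preconditioning alone. Here and throughout, a call means an adjusted p below 0.05 in edgeR's quasi-likelihood test. Of the called genes, 1886 were at least 2-fold higher and 1971 at least 2-fold lower, and the median log2 change of all genes was 0.02. The library values of 8834 genes (52.7%) did not overlap between the groups. Leaving out preconditioning+FCCP 3 gave 5218 called genes of 17356 (30.1%), 2422 higher (14%) and 2796 lower (16.1%). A fit of the 7 libraries of the series with the lower share of reads aligned to several places called 9097 of 17481 genes. Of these, 4667 were higher and 4430 lower, a larger share than in the main fit. Those 7 libraries include all those compared here but preconditioning+FCCP 3. No comparison within the remaining libraries was possible, since they held preconditioning+FCCP 3 and no preconditioning library. By these background rates, a list with about 20.2% of its members higher and 19.2% lower does not stand apart from genes in general.

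The largest rises were ranked among called genes with a mean of at least 5 CPM in either group and no overlap between the groups. They included the immediate early genes FOSB and FOS and a group of weakly expressed genes. FOSB, which encodes a subunit of the AP-1 transcription factor, had 3.63, 1.65, 2.37 and 1.61 CPM (gene counts scaled to the size of the library) in preconditioning 1 to 4 and 30.2, 502 and 362 CPM in preconditioning+FCCP 1 to 3. Its log2 change was 7.01 ± 0.72 (SE; adjusted p = 1.18e-05), and without preconditioning+FCCP 2 it was 6.39. FOS, its partner gene in the family, had 3.57, 3.52, 4.2 and 4.16 CPM and then 38.6, 361 and 370.1 CPM, a log2 change of 6.05 ± 0.80 (adjusted p = 6.63e-05). As the ranking required, every preconditioning+FCCP library lay above every preconditioning library in both genes. Preconditioning+FCCP 1 stood about an order of magnitude below its other replicates. EGR1, a zinc finger factor, had 171, 172, 191 and 155 CPM and then 921, 1226 and 628 CPM, 5.37-fold higher, with no such gap between replicates. ARC, a regulator of synaptic receptor traffic known as an activity marker in neurons, had 0.23, 0.114, 0.237 and 0.208 CPM and then 4, 3.7 and 4.86 CPM (log2 change 4.36 ± 0.39). NR4A2, an orphan nuclear receptor, rose by 2.90.

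Of 23 immediate early genes tested, 13 rose and 5 fell, with a median log2 change of 1.13 against 0.02 over all genes. The counts were 10 and 5 and the median 0.84 without preconditioning+FCCP 3, and without preconditioning+FCCP 1 only 3 were lower. The members that fell were the AP-1 genes FOSL1 (-1.30) and FOSL2 (-1.32), the Krüppel-like factor KLF6 (-1.48), IER3 (-1.23) and MYC (-1.01). FOSL2 had 241, 249.8, 317 and 224 CPM with preconditioning and 117, 95.5 and 96.6 CPM with FCCP added, and the groups did not overlap. The fall of MYC, a driver of growth, was lost on leaving out any of preconditioning 1 to 3 or preconditioning+FCCP 1 or 2. JUN, the most common partner of FOS, was not called (1.05), while JUNB (2.21) and JUND (1.21) rose. Among 17 genes that feed back on MAP kinases, the phosphatase genes DUSP2, DUSP6 and DUSP14 rose and PHLDA1 and SPRED3 fell. DUSP6, which removes phosphate from ERK, changed by 2.07 ± 0.39, and the DUSP1 change of 0.59 was not called.

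**Figure D1:**
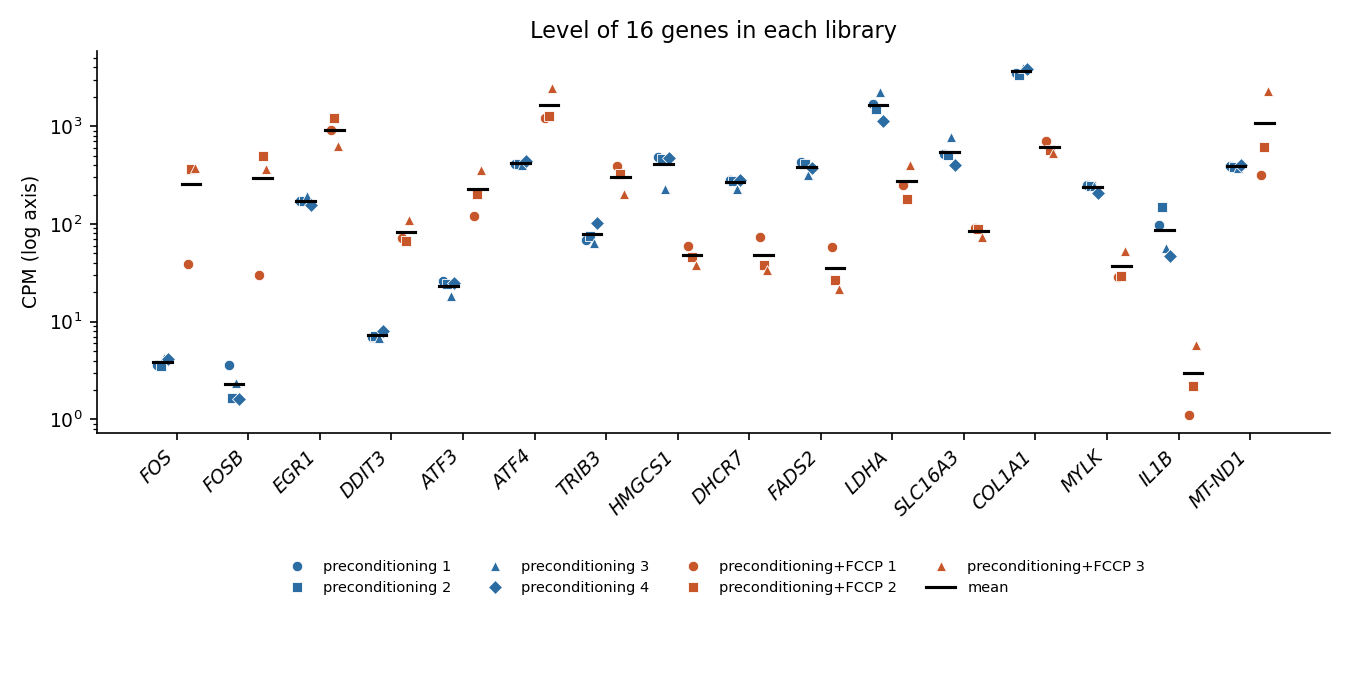
Level of 16 genes in each library in CPM on a log axis, with 4 preconditioning libraries in blue and 3 preconditioning+FCCP libraries in orange, 1 marker shape per replicate number and a black line at each group mean. All groups are apart except for MT-ND1, whose preconditioning+FCCP 3 value of 2307 lies far above the rest.

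Among the other genes with the largest rises, 3 belong to signalling at the cell surface or downstream of it. HES1, the repressor that Notch receptors induce, had 1.15, 1.14, 2.66 and 1.82 CPM and then 6.37, 50.9 and 72.5 CPM. DLL4, a Notch ligand known from sprouting vessels, totalled 8 counts over the 4 preconditioning libraries and 312 over the 3 with FCCP. NGFR, the low affinity neurotrophin receptor, had 1.09, 1.08, 0.414 and 1.77 CPM and then 23.5, 41.4 and 19.1 CPM. The log2 changes of HES1, DLL4 and NGFR were 4.67 ± 0.79, 5.47 ± 0.86 and 4.67 ± 0.73. Like all the largest rises ranked, FOSB and FOS included, these genes reached the required mean of 5 CPM only with FCCP added. The choice thus favoured a low start. AOC3, an amine oxidase of vascular and fat cells, rose by 4.46, and FAM222A by 4.16. DLL4, COL20A1, PYGM (muscle glycogen phosphorylase), CCDC17, OVGP1 and MAP7D2 were near the detection limit without FCCP. COL20A1 had 4 counts in all preconditioning libraries together and 437 in the other group, so that its fitted change of 6.84 depends on the prior count. MAP7D2 had 1.97, 2.14 and 22.1 CPM, and without preconditioning+FCCP 3 its change of 4.66 became 2.54 and was not called (adjusted p = 0.0804). It was called (2.58) in the 7 libraries with the lower share of reads aligned to several places, which also lack preconditioning+FCCP 3. Without that library the changes of HES1, PYGM, CCDC17 and OVGP1 were 4.06, 3.62, 3.77 and 3.33, all still called.

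Among called genes with a mean of at least 5 CPM in either group and no overlap between the groups, the largest fall was that of IL1B, which encodes interleukin 1β. It had 98.5, 148, 57.4 and 47 CPM and then 1.1, 2.22 and 5.71 CPM, 29.2-fold lower (-4.87 ± 0.79; adjusted p = 0.000299), and -5.71 without preconditioning+FCCP 3. RGS4, a regulator that shortens G protein signals, had 128, 124, 178 and 78 CPM and then 5.21, 3.57 and 6.05 CPM (log2 change -4.69 ± 0.41). IL7R, a subunit of the interleukin 7 receptor, had 169, 166, 156 and 102 CPM and then 3.82, 5.42 and 11.7 CPM (log2 change -4.41 ± 0.46, and -5.02 without preconditioning+FCCP 3). As the ranking required, each of these genes was lower in all 3 preconditioning+FCCP libraries than in any of the 4 others. DKK1, a secreted inhibitor of Wnt signals, had 91.4, 99.4, 195 and 69 CPM and then 5.85, 4.68 and 6.84 CPM. HAS2, a hyaluronan synthase, had 41.8, 44.1, 35.6 and 23.3 CPM and then 1.62, 1.15 and 3.5 CPM. The log2 changes were -4.30 ± 0.72 for DKK1 and -4.13 ± 0.81 for HAS2, the latter -4.75 without preconditioning+FCCP 3. IL24 (-4.19), the scavenger receptor COLEC12 (-4.47), NLRP10 (-4.15), NYNRIN (-3.92), the retinoic acid receptor gene RARB (-3.85) and the keratin KRT80 (-3.83) fell as well. LINC02984, a long noncoding RNA, changed by -4.68, and by -5.55 without preconditioning+FCCP 1. Of these largest falls, only IL7R (6.98) and DKK1 (5.79) also had a mean of at least 5 CPM with FCCP added. The others reached that mean only with preconditioning alone, so the choice favoured a low level with FCCP.

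Sterol synthesis genes fell as a group. HMGCS1, which makes HMG-CoA, had 483, 464, 230.4 and 472 CPM with preconditioning and 60.2, 45.7 and 37.8 CPM with FCCP added, 8.61-fold lower (-3.11 ± 0.42; adjusted p = 7.22e-05). Preconditioning 3 was lower than its replicates, and the FCCP values lay below it without overlap. LSS, which closes the first sterol ring system, had 298, 279, 266 and 242 CPM and then 58.6, 43.5 and 42.7 CPM, 5.62-fold lower. Of 20 members tested, 16 fell and none rose, with a median of -1.33, and the counts and median were 16, 0 and -1.33 without preconditioning+FCCP 3. The falls included those in the mevalonate part (FDPS -1.75, MVD -1.21, PMVK -0.97, MVK -0.94), the entry to sterols (FDFT1 -1.66, SQLE -1.42) and the late steps (CYP51A1 -2.52, MSMO1 -1.90, DHCR7 -2.46). IDI1 (-0.35), EBP (-0.31), TM7SF2 (-0.35) and SC5D (0.12) were not called, although all 4 also carry GATTGGC in their promoters.

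Of 13 SREBP regulators and lipoprotein uptake genes, 8 fell and none rose (median -1.14). ABCA1, which exports cholesterol and is induced by the sterol sensor LXR, had 27.7, 22.6, 16.9 and 15.5 CPM and then 3.07, 2.51 and 3.11 CPM (-2.84 ± 0.31), with no overlap between groups. INSIG1, which holds SREBP back and is itself an SREBP target, changed by -3.24, SREBF1 by -1.72 and SREBF2 by -1.48. The LXR genes NR1H3 (-0.25) and NR1H2 (-0.13) were not called. The count was 6 of 13 without preconditioning+FCCP 3.

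Fatty acid synthesis showed the same direction in 10 of 14 members (median -0.82). FADS2, the first desaturase of polyunsaturated fatty acids, had 435, 408, 319 and 374 CPM and then 58.3, 27 and 21.6 CPM, 10.8-fold lower (-3.43 ± 0.45; adjusted p = 6.64e-05). SCD, which makes monounsaturated fatty acids, changed by -3.39 ± 0.63 and FASN, the fatty acid synthase, by -2.85. ACLY, which supplies cytosolic acetyl-CoA, had 583, 540.1, 506 and 495 CPM and then 189, 138 and 172 CPM (-1.67 ± 0.17). TECR, a reductase of fatty acid elongation, was the 1 member higher (0.56), a call lost on leaving out any of the 7 libraries. The list of mitochondrial fatty acid oxidation leaned the other way: 7 of 20 rose and ECI2 (-0.70) fell, with a median of 0.47 (6 and 1 without preconditioning+FCCP 3). It does not hold oxidation enzymes alone, as its largest rise was that of ANGPTL4, which is not such an enzyme. CPT1A, which commits fatty acids to import into mitochondria, had 9.73, 12.8, 9.94 and 9.82 CPM and then 25.3, 35.3 and 28.6 CPM (1.49 ± 0.30). ETFDH, which passes their electrons to ubiquinone, had 22.7, 19.3, 25.3 and 25.9 CPM and then 57.6, 46.9 and 44.6 CPM. PDK4, a kinase that holds pyruvate dehydrogenase off, changed by 3.36 ± 0.76 and ANGPTL4, a lipase inhibitor, by 3.64 ± 1.00, from 1.3 to 2.96 CPM in the preconditioning and 7.93 to 35.6 CPM in the preconditioning+FCCP libraries.

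**Figure D2:**
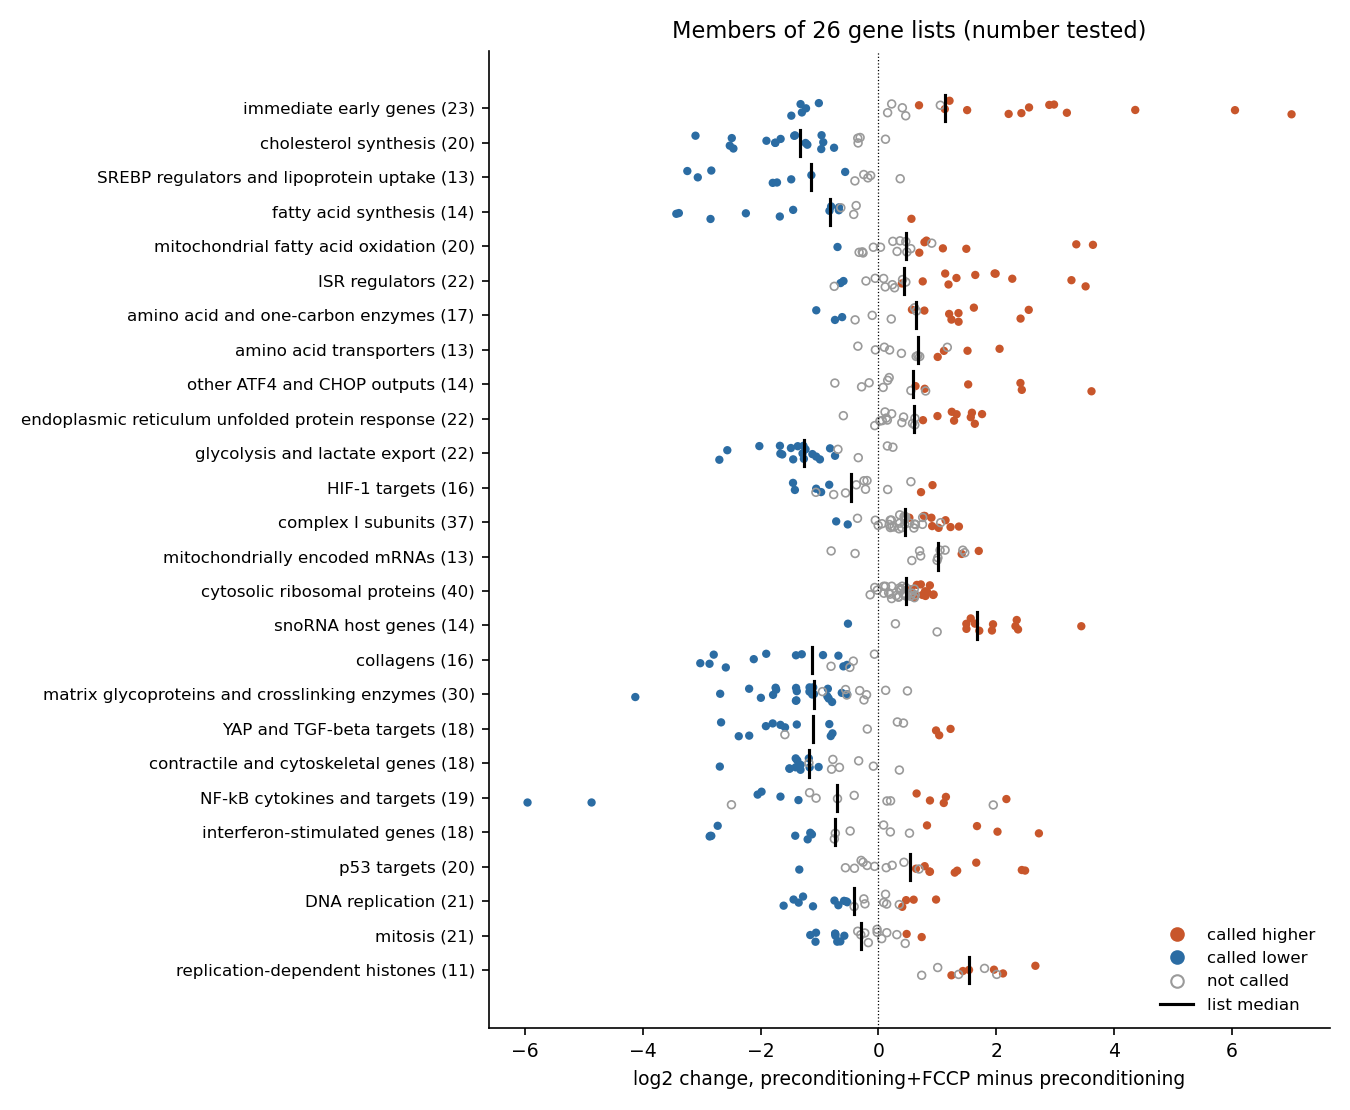
Log2 change (preconditioning+FCCP minus preconditioning) of each tested member of 26 gene lists, with called members filled in orange (higher) or blue (lower), other members open and a black bar at the list median. Cholesterol synthesis and glycolysis have medians of -1.33 and -1.27, and snoRNA host genes of 1.67.

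Of 22 regulators of the integrated stress response, 11 rose, 2 fell and 9 were not called (median 0.44). DDIT3, which encodes CHOP, had 6.91, 7.16, 6.75 and 8.06 CPM with preconditioning and 71.5, 66.5 and 110.0 CPM with FCCP added, 11.4-fold higher (3.52 ± 0.43; adjusted p = 3.69e-05). ATF4 messenger RNA had 415, 414, 405 and 439 CPM and then 1228, 1270.4 and 2482 CPM, a log2 change of 1.99 ± 0.33, and 1.55 without preconditioning+FCCP 3. In both genes the groups did not overlap, and preconditioning+FCCP 3 was highest. ATF3, an inducible repressor of the same family, had 26.1, 24, 18.3 and 25 CPM and then 121, 203 and 355 CPM (3.28 ± 0.46). PPP1R15A, the phosphatase subunit GADD34 that ends the response, had 131, 152, 142 and 148 CPM and then 525, 693 and 858 CPM (2.27 ± 0.35). TRIB3, a pseudokinase that restrains ATF4, had 68.7, 76, 64.1 and 103 CPM and then 388, 327 and 203 CPM (1.97 ± 0.54), highest in preconditioning+FCCP 1. The counts higher and lower were 9 and 2 without preconditioning+FCCP 3. The 2 that fell encode eIF2α kinases, EIF2AK2 (PKR, -0.64) and EIF2AK4 (GCN2, -0.59). The other kinases, EIF2AK3 (PERK, 0.41) and EIF2AK1 (HRI, 0.27), and the relay from mitochondria to HRI, OMA1 (-0.75) and DELE1 (-0.06), were not called.

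Genes of amino acid supply that ATF4 is known to drive rose in part. CTH, the last enzyme of cysteine synthesis from methionine, had 7.83, 6.14, 5.86 and 8.06 CPM and then 35.6, 34 and 41.9 CPM (2.41 ± 0.36). PHGDH, the entry to serine synthesis, had 288, 314, 309 and 354 CPM and then 946, 758 and 732 CPM, 2.57-fold higher. GOT1, the cytosolic aspartate aminotransferase, had 83.2, 83.1, 89.8 and 83.3 CPM and then 270.2, 198 and 185 CPM (1.36 ± 0.21). All 3 genes were higher in every preconditioning+FCCP library than in any other of the 7. PSAT1 (1.62) and the mitochondrial folate enzymes MTHFD2 (1.20) and SHMT2 (0.57) rose as well, whereas MTHFD1L (-0.74), PYCR1 (-0.62) and the branched-chain aminotransferase BCAT1 (-1.06) fell. In all, 9 of 17 enzymes rose and 3 fell (median 0.64), or 8 and 2 without preconditioning+FCCP 3. ASNS, the asparagine synthetase, had 2.71, 1.93, 0.355 and 5.09 CPM and then 17.9, 14.2 and 12.6 CPM. Its change of 2.55 ± 0.90 (adjusted p = 0.0339) was no longer called on leaving out any library but preconditioning 4, without which it was 3.15.

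Of 13 amino acid transporters, SLC1A4, SLC3A2, SLC1A5 and SLC43A1 rose and none fell (median 0.67). SLC1A4, an exchanger of neutral amino acids, had 35.3, 36.8, 33.7 and 47.1 CPM and then 219, 169.8 and 87.9 CPM (2.06 ± 0.41). SLC3A2, the shared heavy chain of several exchangers, had 275, 281, 337 and 247 CPM and then 632, 837 and 968 CPM (1.51 ± 0.38), while the light chains SLC7A5 (0.64) and SLC7A11 (1.17) were not called. Among 14 other ATF4 and CHOP outputs, 6 rose and none fell (median 0.59), 7 without preconditioning+FCCP 3 and 3 without preconditioning+FCCP 2. ADM2, a peptide hormone, had 9.96, 11.7, 9.17 and 14.9 CPM and then 37.5, 34.5 and 26.5 CPM. SESN2, a leucine sensor that restrains mTORC1, had 50.6, 55.1, 43.5 and 55.7 CPM and then 242, 249.7 and 338 CPM (2.43 ± 0.68; adjusted p = 0.0103). CHAC1, which degrades glutathione, had 19.7, 17, 15.4 and 17 CPM and then 68.3, 85.9 and 121 CPM. Although its groups were apart, the CHAC1 change of 2.41 ± 0.91 (adjusted p = 0.0462) lost its call on leaving out any of the 7 libraries. RAB39B, a small GTPase, went from 14 counts in 4 libraries to 151 in 3 (3.62 ± 0.74). GDF15, the circulating stress cytokine, was not called: it had 14.3, 18, 8.76 and 25.5 CPM and then 17.3, 21.4 and 18 CPM, with overlapping groups (0.18 ± 0.35; adjusted p = 0.706).

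Of 22 genes that answer misfolded protein in the endoplasmic reticulum, 9 rose and none fell (median 0.60), or 8 of 22 without preconditioning+FCCP 3. SYVN1, the ubiquitin ligase that clears misfolded proteins, had 64.3, 58.4, 61.2 and 60.7 CPM and then 169, 158 and 119 CPM (1.28 ± 0.17). DNAJB9, a co-chaperone that XBP1 and ATF6 induce, had 16.6, 17.5, 15.8 and 18.9 CPM and then 60.2, 53.2 and 61.3 CPM (1.76 ± 0.27), and DNAJB11 changed by 1.24 ± 0.19. HSPA5, the chaperone BiP, had 791, 760.4, 987 and 696 CPM and then 1539, 1605 and 1712 CPM. Its 2.00-fold higher level (adjusted p = 0.0305) was called in the full set and without preconditioning 3, but not on leaving out any other of the 7. The sensor gene ERN1 (1.57), which encodes IRE1, and XBP1 (1.59), the transcription factor whose messenger RNA IRE1 splices, rose, while ATF6 (0.40) and the disulfide isomerases PDIA3 (0.15), PDIA4 (0.02) and PDIA6 (-0.60) were not called. Cytosolic heat shock genes did not share this: of 24 tested, HSPA4L (1.68) and CHORDC1 (0.83) rose and HSPA8 (-2.22) and the collagen chaperone SERPINH1 (-0.72) fell (median 0.04; 1 and 3 without preconditioning+FCCP 3). HSPA1A had 55.6, 80.1, 55.3 and 95.9 CPM and then 65.2, 51.5 and 109 CPM, with overlapping groups. Of 16 mitochondrial chaperones and proteases, HSPA9 (0.60), GRPEL1 (0.62) and DNAJA3 (0.54) rose and PHB1 (-0.95) fell (0 higher and 1 lower without preconditioning+FCCP 3). HSPD1, the chaperonin subunit used to mark the mitochondrial unfolded protein response, had 565, 556, 693 and 525 CPM and then 596, 523 and 611 CPM (-0.02 ± 0.32; not called).

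Glycolysis and lactate export genes fell in 18 of 22 cases and rose in none, with a median of -1.27 (17 and 0 without preconditioning+FCCP 3). SLC16A3, the lactate exporter MCT4, had 519, 503, 773 and 404 CPM and then 91.9, 88.3 and 73.3 CPM, 6.50-fold lower (-2.70 ± 0.28; adjusted p = 1.18e-05). LDHA, which turns pyruvate into lactate, had 1673, 1511, 2236 and 1141 CPM and then 249, 179.7 and 403 CPM, 5.92-fold lower. HK1, a hexokinase bound to mitochondria, had 351, 334, 422 and 298 CPM and then 139, 109 and 138 CPM (-1.45 ± 0.20), and PFKL, the liver form of phosphofructokinase, changed by -1.29 ± 0.17. In these 4 genes every preconditioning+FCCP library was below every preconditioning library. Others that fell were the glucose transporter SLC2A1 (-1.06), GPI (-1.27), GAPDH (-1.12), PGK1 (-2.02), PGAM1 (-1.63), ENO1 (-1.49) and PKM (-1.67). The second hexokinase gene, HK2, had 118, 113, 174 and 94.5 CPM and then 97.5, 89.5 and 109 CPM, with overlapping groups (-0.34 ± 0.36). SLC2A3 (0.24), PFKFB3 (0.15) and ALDOA (-0.69) were not called either.

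Of 16 targets and genes of the hypoxia factor HIF-1, HIF1A, EPAS1, CA12, BNIP3 and BNIP3L fell and KDM3A (0.92) and ANKRD37 (0.72) rose (median -0.47). HIF1A itself had 269, 264, 247 and 253 CPM and then 123, 96.9 and 174 CPM (-0.97 ± 0.24), and CA12, a carbonic anhydrase, 36.7, 35, 34.9 and 32 CPM and then 11.4, 11.7 and 15.7 CPM (-1.42 ± 0.23). Without preconditioning+FCCP 2 or 3, 3 of the 5 falls remained by count, and the count of 2 rises was 0 to 1 on leaving out any library but preconditioning+FCCP 3. In the TCA cycle and pyruvate entry list, 8 of 22 fell, among them SUCLG2 (-1.92), PDHB (-0.94), IDH2 (-0.75) and CS (-0.43). MPC1, a subunit of the mitochondrial pyruvate carrier, rose by 1.74 and SUCLG1 by 0.46, and without preconditioning+FCCP 3 the counts were 7 lower and 1 higher.

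Fewer genes of complexes I to IV were called once preconditioning+FCCP 3 alone was left out. Of 37 complex I subunits, 9 rose and 2 fell, among them NDUFS1 (-0.72; median of the 37 0.44), against 3 and 1 with a median of 0.12 without that library. Leaving out any other of the 7 also left 1 lower. NDUFV3 had 42, 43.5, 48.9 and 35.4 CPM and then 69, 79.6 and 88.7 CPM, and NDUFA6 55.3, 61, 69.8 and 54 CPM and then 95.3, 109 and 161 CPM. Both stayed called without preconditioning+FCCP 3, at 0.78 and 0.74. Of 24 nuclear subunits of complexes II to IV, SDHD, UQCRH, CYCS, COX6A1 and UQCRQ rose and SDHC fell, or 1 and 1 without that library. Of 17 ATP synthase genes, ATP5MJ rose (0.85) and ATP5F1A (-0.76) and ATP5MC3 (-0.44) fell, or 1 and 3 without that library. The 7 libraries with the lower share of reads aligned to several places also lack preconditioning+FCCP 3. In them 9 complex I subunits were called higher and 3 lower (median 0.15). Complexes II to IV had 5 and 3 there, and ATP synthase 1 and 5.

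The mitochondrially encoded messenger RNAs were set apart mainly by preconditioning+FCCP 3. MT-ND1, a core subunit of complex I, had 396, 386, 377 and 406 CPM and then 316, 615 and 2307 CPM, and MT-CO1, the catalytic subunit of complex IV, 3727, 3584, 2256 and 3902 CPM and then 2206, 2700.1 and 10050.0 CPM. In both, preconditioning+FCCP 1 lay below every preconditioning library and preconditioning+FCCP 3 far above, and neither was called (1.46 ± 0.59 and 0.57 ± 0.71). MT-ATP6 (1.70 ± 0.46; adjusted p = 0.00863) and MT-ND2 (1.41 ± 0.45; adjusted p = 0.0214) were the 2 of 13 called, both higher. Without preconditioning+FCCP 3 their changes were 0.59 and 0.28, neither was called, MT-CO1 was -0.49, and the median of the 13 went from 1.01 to -0.03. In the 7 libraries with the lower share of reads aligned to several places, MT-ATP6 was called higher (0.62) and MT-ND2 was not called (0.31). There, 1 of the 13 was higher and 2 were lower (median -0.00). MT-ND2 was also lost without preconditioning 3, and 5 of the 13 were called higher without preconditioning+FCCP 1. All 37 mitochondrially encoded genes together took 1.45% ± 0.349 (SD, n = 4) of gene counts with preconditioning and 3.36% ± 2.70 (SD, n = 3) with FCCP added. The difference of 1.90 percentage points gave p = 0.229 in an exact two-sided permutation test whose smallest possible p is 0.0571, and it was 0.369 without preconditioning+FCCP 3.

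Other mitochondrial lists had called members in both directions. Of 16 biogenesis factors, MTERF3 (2.03) and POLG2 (0.57) rose and TFB1M (-0.98) fell, while TFAM (0.11), which packages mitochondrial DNA, was not called (1 and 1 without preconditioning+FCCP 3). PPARGC1A, the coactivator PGC-1α, had 1.32, 1.14, 0.828 and 1.04 CPM and then 0.869, 0.904 and 0.452 CPM, 77 and 45 counts in all (-0.53 ± 0.43; not called). Of 21 genes of mitophagy and mitochondrial dynamics, 4 rose (MFF, TAX1BP1, TBK1 and CALCOCO2) and 4 fell. PINK1, the kinase that marks depolarised mitochondria for removal, was among those that fell, with 39.1, 39.5, 46.6 and 33.2 CPM and then 21.7, 15.4 and 9.15 CPM (-1.36 ± 0.26; adjusted p = 0.000825), as were the receptors BNIP3 (-1.45) and BNIP3L (-1.06) and the fission adaptor MIEF2 (-0.98). Leaving out preconditioning+FCCP 3 left 1 higher and 3 lower. SQSTM1, an adaptor of selective autophagy, had 189, 201, 187 and 159 CPM and then 356, 283 and 157 CPM and was not called (0.53 ± 0.41), but was called higher in the 7 libraries with the lower share of reads aligned to several places (0.79; adjusted p = 0.000289). Of 16 calcium and nucleotide carriers, UCP3 (2.14), SLC25A4 (0.73) and MCUB (0.52) rose and UCP2 (-2.44) and PPIF, the pore regulator cyclophilin D (-1.36), fell (2 and 3 without preconditioning+FCCP 3). Import genes had 3 of 19 higher (TIMM44, TIMM17B and TIMM9) and 3 lower (TOMM22, TOMM20 and TIMM8A), and mitochondrial ribosomal proteins 5 of 33 higher (MRPL9, MRPL10, MRPL18, MRPL22 and MRPS6) and 2 lower (MRPS16 and MRPS27). These counts were 3 and 4, and 2 and 4, without preconditioning+FCCP 3.

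Host genes of small nucleolar RNAs, whose spliced transcripts are often degraded during translation, rose in most cases. SNHG7 had 29.8, 32.6, 38.2 and 37.8 CPM and then 123, 136 and 261 CPM, 5.01-fold higher (2.32 ± 0.27; adjusted p = 2.63e-05). GAS5, which carries several such RNAs in its introns, had 94.2, 88.7, 67.1 and 102 CPM and then 184, 241 and 396 CPM (1.64 ± 0.23), and EPB41L4A-AS1 10.4, 9.1, 7.63 and 11.1 CPM and then 28.6, 47.5 and 72.3 CPM (2.37 ± 0.33). All 3 were highest in preconditioning+FCCP 3, and the groups did not overlap. Of 14 tested, 11 rose and SNHG16 (-0.52) fell, with a median of 1.67, and 10 rose and 1 fell with a median of 1.27 without preconditioning+FCCP 3. The SNHG16 call was lost without preconditioning+FCCP 2. Cytosolic ribosomal protein genes behaved otherwise on leaving that library out. Of 40, 13 rose (median 0.46) with it, and none was called in either direction without it (median 0.14). RPLP2 had 322, 355, 369 and 317 CPM and then 490.0, 474 and 907 CPM, and RPL32 347, 374, 394 and 344 CPM and then 478, 505 and 953 CPM. Their changes of 0.87 ± 0.24 and 0.82 ± 0.22 became 0.47 and 0.40, not called. The 7 libraries with the lower share of reads aligned to several places also lack preconditioning+FCCP 3. In them 7 of the 40 were called higher and none lower (median 0.17), RPLP2 (0.50) and RPL32 (0.43) among them. Without preconditioning 1, 2 or 4, 5 of the 40 were called. Of 23 ribosome biogenesis genes, NOP2 rose (1.69) and UTP20 (-1.09) and POLR1A, the large subunit of RNA polymerase I (-1.21), fell (1 and 3 without preconditioning+FCCP 3).

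**Figure D3:**
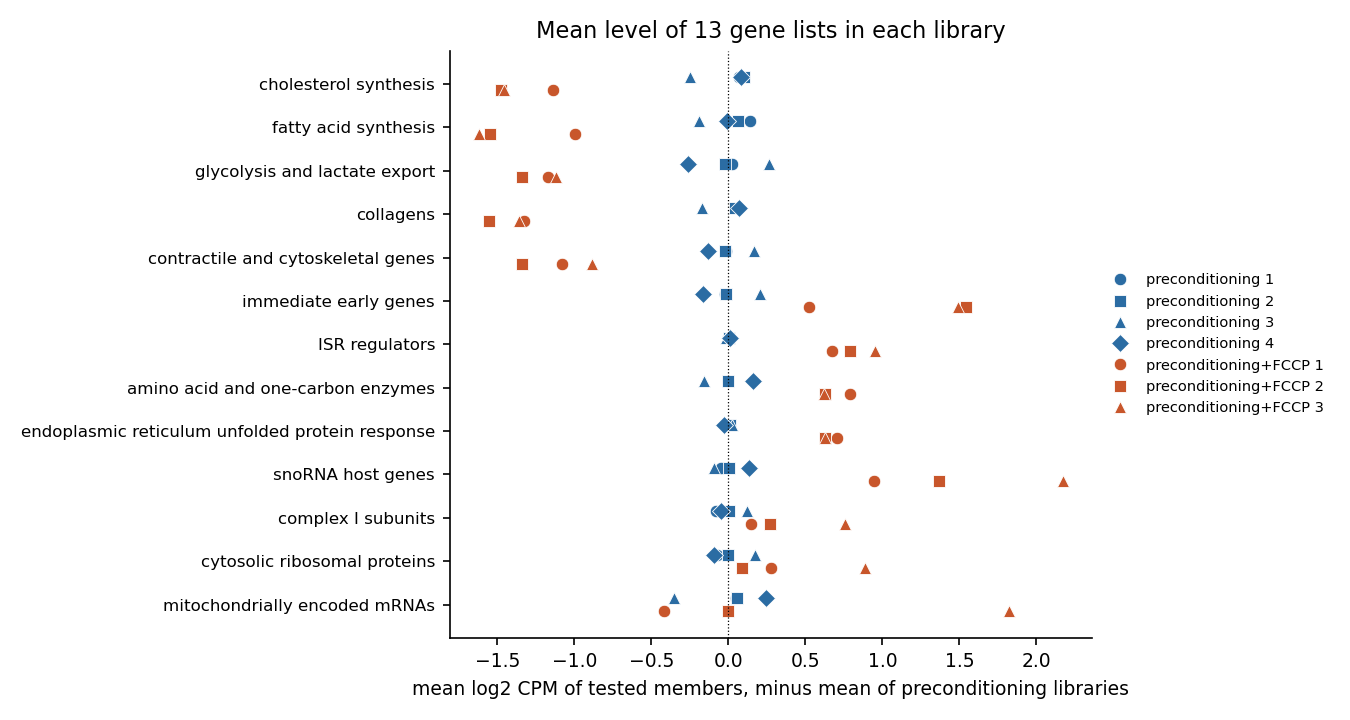
Mean log2 CPM of the tested members of 13 gene lists in each of the 7 libraries, relative to the mean of the 4 preconditioning libraries (blue, preconditioning; orange, preconditioning+FCCP; 1 marker shape per replicate number). Cholesterol synthesis lies at -1.14, -1.48 and -1.46 in preconditioning+FCCP 1 to 3, whereas mitochondrially encoded mRNAs lie at -0.42, -0.00 and 1.82.

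Collagen and other matrix genes fell. COL1A1, a chain of the main fibrillar collagen, had 3497, 3384, 3940.1 and 3833 CPM with preconditioning and 713, 575 and 536 CPM with FCCP added, 6.03-fold lower (-2.59 ± 0.27; adjusted p = 1.15e-05). COL1A2, its partner chain, had 1527, 1468, 1441 and 1707 CPM and then 216, 234 and 213 CPM, 6.95-fold lower. The replicates lay close together in each group and the groups were far apart. Of 16 collagens, 12 fell and none rose (median -1.12; 13 and 0 without preconditioning+FCCP 3), from COL3A1 (-3.02) and COL11A1 (-2.87) to the basement membrane chains COL4A1 (-0.54) and COL4A2 (-0.60), while the chain COL6A2 (-0.07) was not called. Of 30 matrix glycoproteins and crosslinking enzymes, 22 fell and none rose (median -1.10). THBS2, a matricellular thrombospondin, had 305, 289, 335 and 296 CPM and then 71.1, 39 and 32.7 CPM (-2.69 ± 0.25). LAMC1 and LAMA4, laminin chains, changed by -1.39 ± 0.15 and -1.75 ± 0.22, and fibronectin (FN1) by -0.84.

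These genes overlap with markers of fibroblasts, of which 10 of 13 tested fell and none rose (median -1.40). The summed level of the fibroblast list was 7358 to 7828 CPM with preconditioning and 1811 to 3350 CPM with FCCP added. VIM (-0.30) and DDR2 (0.18) were not called, while the surface markers PDGFRA (-1.40), PDGFRB (-1.33), THY1 (-1.25) and FAP (-1.64) fell. In bulk RNA, fewer cells of a kind and less RNA per cell cannot be told apart. The summed level of 24 cardiomyocyte markers was 134.8 to 192.9 CPM and then 24.9 to 31.7 CPM, which was carried by GJA1. GJA1, the gap junction protein connexin 43, had 124 to 185 CPM in the preconditioning and 11.6 to 20.5 CPM in the preconditioning+FCCP libraries (-3.20 ± 0.33). DES also fell and MEF2C, at 0.748 to 1.14 CPM in the preconditioning and 3.67 to 4.19 CPM in the preconditioning+FCCP libraries, rose. The sums of epithelial markers were 154.9 to 257.2 CPM and 40.4 to 93.3 CPM, of endothelial markers 35.9 to 52.7 CPM and 19.2 to 27.5 CPM, of smooth muscle markers 375.7 to 446.3 CPM and 287.5 to 386.3 CPM, and of immune markers 3.41 to 4.71 CPM and 2.13 to 5.30 CPM. The part of a shift in cell makeup in the matrix result was not tested.

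Genes driven by YAP and TGF-beta fell in 11 of 18 cases (median -1.11), and SKIL (1.03), SMAD7 (1.22) and PMEPA1 (0.98), which restrain TGF-beta signals, rose. Without preconditioning+FCCP 3 the counts were 10 lower and 0 higher, and 1 was higher without preconditioning+FCCP 2. CRIM1 had 239, 229.8, 258 and 217 CPM and then 74.6, 62.7 and 86.2 CPM, and F3, the tissue factor that starts clotting, 215, 197, 323 and 150.2 CPM and then 33.7, 41.5 and 52.9 CPM. Their changes were -1.66 ± 0.19 and -2.37 ± 0.29, with groups that did not overlap. CCN2, the connective tissue growth factor, had 178, 191, 183 and 218 CPM and then 83.8, 133 and 119 CPM. Its smaller change of -0.78 ± 0.27 (adjusted p = 0.031) was not called without preconditioning 2, preconditioning 4, preconditioning+FCCP 1 or preconditioning+FCCP 3. Of 18 contractile and cytoskeletal genes, 11 fell and none rose (median -1.18; 12 and 0 without preconditioning+FCCP 3). MYLK, the kinase that activates smooth muscle myosin, had 252, 247, 245 and 205 CPM and then 28.4, 29.5 and 52.3 CPM, 6.47-fold lower (-2.69 ± 0.23; adjusted p = 4.03e-06). CNN2 (-1.51 ± 0.20) and CALD1 (-1.32 ± 0.18), which bind actin, fell, as did VCL (-1.18), TPM1 (-1.51) and FLNA (-1.41), whereas ACTA2 (-0.77), TAGLN (-0.80) and the factor SRF (0.35) were not called.

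Cytokine and interferon genes divided within their lists. Of 19 NF-kB targets, 6 fell and 5 rose (median -0.70). CCL2, a monocyte attractant, changed by -5.96 ± 1.27, from 1.14 to 2.01 CPM in the preconditioning and 0 to 0.0579 CPM in the preconditioning+FCCP libraries, and IL1A and CXCL1 fell by 2.05 and 1.98. ICAM1, an adhesion molecule, had 83.1, 88.1, 47.7 and 81.8 CPM and then 37.2, 20.2 and 13.8 CPM (-1.66 ± 0.29). The members higher were RELB (0.87), NFKB2 (0.65), PTGS2 (1.14), CXCL3 (2.17) and NFKBIZ (1.11), of which 1 was left by count without preconditioning+FCCP 3, 2 without preconditioning 3, preconditioning 4 or preconditioning+FCCP 2, and 3 without preconditioning 1. Without preconditioning+FCCP 1, 3 were lower. Of 18 interferon-stimulated genes, 8 fell and 4 rose (median -0.74; 9 and 2 without preconditioning+FCCP 3). IFIT3, a partner of the antiviral protein IFIT1, had 282, 241, 87.5 and 141 CPM and then 13.1, 24.6 and 40.2 CPM (-2.85 ± 0.42). IRF7, the factor that amplifies interferon, went the other way, with 19.9, 21.9, 17.5 and 22 CPM and then 69.6, 80.3 and 97.3 CPM (2.02 ± 0.20; adjusted p = 8.48e-06). The other members higher were IFI27 (2.72), IFI6 (1.67) and IRF1 (0.82), and those lower included IFIT1 (-2.87), IFIT2 (-2.73) and OASL (-2.84).

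Cell cycle genes leaned lower. Of 21 DNA replication genes, 10 fell and PCNA (0.98), CDC6 (0.60), CDT1 (0.40) and E2F1 (0.47) rose (median -0.41). The rises were counted in none of the 21 without preconditioning+FCCP 3 and in 1 or 2 without any other library of the 7, while 9 falls were counted without preconditioning+FCCP 3. MCM2, a helicase subunit loaded at replication origins, had 206, 223, 239 and 232 CPM and then 106, 82.4 and 59.6 CPM (-1.44 ± 0.20). Of 21 mitosis genes, 9 fell and AURKB (0.73) and TTK (0.48) rose (median -0.30; 8 and 0 without preconditioning+FCCP 3, and 1 higher without any other of the 7). CCNB1, the mitotic cyclin, had 335, 319, 393 and 297 CPM and then 182, 126 and 175 CPM, 2.09-fold lower. MKI67, the proliferation marker, was not called (-0.23). Of 11 replication-dependent histone genes, whose transcripts normally lack a poly-A tail, 6 rose and none fell (median 1.54; 3 and 0 without preconditioning+FCCP 3). H2BC21 had 2.24, 2.5, 1.24 and 2.18 CPM and then 4.52, 14.2 and 20.2 CPM (2.66 ± 0.40), and H2BC12 7.89, 9.49, 10.8 and 8.99 CPM and then 19, 24.7 and 31.5 CPM. Preconditioning+FCCP 1 was the lowest of its group in both.

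Of 20 p53 targets, 9 rose and PLK2 (-1.34) fell (median 0.53; 9 and 1 without preconditioning+FCCP 3). The fall of PLK2 was not called without preconditioning 1, 2 or 4 or preconditioning+FCCP 1. TIGAR, a brake on glycolysis, had 3.8, 3.47, 4.02 and 4.42 CPM and then 21.2, 19.5 and 25.6 CPM, 5.61-fold higher, and SESN1, a relative of SESN2, 8.58, 9.32, 7.75 and 8.58 CPM and then 19.3, 22.6 and 22.9 CPM. CDKN1A, the inhibitor p21, had 275, 306, 225 and 331 CPM and then 281, 252 and 162 CPM with overlapping groups, and MDM2 (-0.41) was not called. In the BCL2 family, the 5 of 16 that rose all encode pro-apoptotic proteins with only a BH3 domain: BCL2L11, BBC3 (1.29), BMF (1.15), HRK (1.92) and BIK (1.69). The BH3-only genes BID (0.07), BAD (-0.05) and PMAIP1 (0.35) were not called. This count of 5 was 3 without preconditioning 1 or any 1 of the preconditioning+FCCP libraries. BCL2L11, known as BIM, had 8.29, 7.05, 8.23 and 9.67 CPM and then 36, 39.8 and 53 CPM (2.37 ± 0.37). The survival gene BCL2L1 fell by 1.07, while MCL1 (0.10), BCL2 (0.29) and the executioners BAX (-0.26) and BAK1 (-0.10) were not called. The larger fall, by 1.74, was that of BOK, which is pro-apoptotic. BOK had 95.9, 96.2, 132 and 97 CPM and then 42.3, 28.8 and 23.8 CPM.

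In energy sensing by AMPK and MondoA, 5 of 15 rose (ULK1, SESN1, SESN2, SESN3 and PRKAB1) and PRKAA1, PRKAG2 and TXNIP fell (median 0.12). ULK1, the kinase that starts autophagy, had 116, 108, 106 and 119.9 CPM and then 349, 325 and 310.1 CPM (1.54 ± 0.21; adjusted p = 7.43e-05), and SESN3 5.35, 3.58, 2.19 and 4.37 CPM and then 24.2, 18.1 and 15 CPM (2.30 ± 0.33). TXNIP, which limits glucose uptake and is induced by glucose through MondoA, had 415, 425, 309.8 and 526 CPM and then 110.3, 165 and 94.4 CPM (-1.76 ± 0.49; adjusted p = 0.0101). Of 19 NRF2 targets, GCLC (1.44), GCLM (0.90), OSGIN1 (2.52) and HMOX1 rose and 4 fell, among them ABCC1 (-1.19), TKT (-0.80) and ME1 (-0.67) (3 and 5 without preconditioning+FCCP 3). HMOX1, heme oxygenase, had 36.8, 36.7, 47.4 and 36.6 CPM and then 69.3, 119 and 108 CPM, a change of 1.33 ± 0.42 that was not called without preconditioning+FCCP 2 or 3. Lysosome genes (5 of 22 higher, 2 lower), autophagy genes (5 of 21 and 4), proteasome genes (4 of 26 and 2), antioxidant enzymes (2 of 18 and 4), clock genes (4 of 16 and 4) and cytosolic tRNA synthetases (5 of 20 and 2) had medians between -0.09 and 0.18. Without preconditioning+FCCP 3 the same lists had 4 and 1, 4 and 3, 0 and 2, 0 and 3, 1 and 4, and 2 and 2. Of 8 metallothionein and zinc response genes, MT1G (3.21), MT1X (1.00), MT1E (0.88) and the zinc exporter gene SLC30A1 (1.43) rose and none fell (2 and 1 without preconditioning+FCCP 3).

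Whether these changes were particular to preconditioned cells was tested with the interaction, the FCCP effect with preconditioning minus that without. It was called for 3180 of 16756 genes (19%), 1571 higher (9.38%) and 1609 lower (9.6%). FCCP without preconditioning changed 590 genes against control (3.52%), 268 higher (1.6%) and 322 lower (1.92%). The replicates behind this count were uneven. Mitochondrially encoded genes took 3.00% of gene counts in control 3 against 9.58% and 8.95% in control 1 and 2, and 6.49% in FCCP 1 against 1.94% and 1.55% in FCCP 2 and 3. In a principal component analysis of all 13 libraries, control 3 had 15.5 on the first component against -53.9 and -49.6, and FCCP 1 had 39.8 on the second against 9.15 and 3.62. The count of 590 was 837 without control 3 and 893 without FCCP 1, but 337 without control 1, 328 without control 2, 142 without FCCP 2 and 185 without FCCP 3. The part of these differences between replicates in the interaction was not tested beyond leaving out each library.

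The effects on sterol and desaturase genes had opposite signs in the 2 settings, from different starting levels. HMGCS1 had 33.3, 46.9 and 27.8 CPM in control 1 to 3 and 43.5, 139 and 184 CPM in FCCP 1 to 3. Control levels of HMGCS1 were thus near those of preconditioning+FCCP, and preconditioning alone was far above both. DHCR7 had 51.7, 52.8 and 51.1 CPM in the control and 87.9, 167 and 349 CPM in the FCCP libraries, and FADS2 52.5, 78.9 and 34.8 CPM and 96.4, 209.8 and 383 CPM. For these genes too, the preconditioning libraries lay above every control library, and the ranges of control and preconditioning+FCCP overlapped. FADS2 changed by 2.05 ± 0.44 without preconditioning and by -3.43 ± 0.45 with it, an interaction of -5.48 ± 0.63 (adjusted p = 0.00026). HMGCS1 changed by 1.76 ± 0.41 and -3.11 ± 0.42, and DHCR7 by 1.96 ± 0.38 and -2.46 ± 0.37. Of the 20 sterol synthesis genes, 11 rose and none fell with FCCP alone (median 1.06), and the interaction was lower for 17 (median -2.36). The interaction was also lower for 11 of 14 fatty acid synthesis genes and 7 of 13 SREBP and lipoprotein genes, and higher for none of either.

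The falls of glycolysis and matrix genes also differed between the settings. LDHA changed by 0.04 ± 0.38 without preconditioning, an interaction of -2.61 ± 0.53 (adjusted p = 0.00435), and SLC16A3 by 0.32 ± 0.27 (-3.02 ± 0.39). COL1A1 changed by 0.00 ± 0.26 without preconditioning, an interaction of -2.59 ± 0.36 (adjusted p = 0.000575), and MYLK by -0.25 ± 0.23 (-2.45 ± 0.32). The interaction was lower for 15 of 22 glycolysis genes, 10 of 16 collagens, 13 of 30 matrix genes and 8 of 18 contractile genes, and higher for none. With FCCP alone, SLC2A3 (1.31) was the 1 glycolysis gene called, and none of the 16 collagens was called.

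Stress genes divided by this test. The rises of DDIT3 (0.82 ± 0.44 without preconditioning; interaction 2.70 ± 0.60), CTH (1.98 ± 0.53), SYVN1 (1.24 ± 0.25), ULK1 (1.40 ± 0.30) and ATF4 (1.43 ± 0.48; adjusted p = 0.0468) were larger in preconditioned cells. The FCCP libraries were not alike in these genes. DDIT3 had 21.4, 17.5 and 19.4 CPM in the control and 71.5, 18 and 13.2 CPM in the FCCP libraries, so that FCCP 1 reached the level of preconditioning+FCCP. ATF4 had 1006, 1002 and 709 CPM and then 2269.8, 965 and 758 CPM, and CTH 8.49, 7.16 and 10.6 CPM and then 22.5, 7.77 and 5.32 CPM, again highest in FCCP 1. With preconditioning alone, DDIT3 and ATF4 lay below every control library, so their rises in preconditioned cells began from a lower level. CTH and SYVN1 levels overlapped between control and preconditioning. On leaving out single libraries, the ATF4 difference was still called only without control 3, FCCP 1 or preconditioning+FCCP 1, and the CTH difference was lost without FCCP 2. For ATF3 (2.27 ± 0.49 without preconditioning; interaction 1.01 ± 0.64, adjusted p = 0.282), PPP1R15A (1.48 ± 0.51) and TRIB3 (2.04 ± 0.79) the difference was not called. CPT1A fell without preconditioning (-1.65 ± 0.34) and rose with it (interaction 3.14 ± 0.45). GDF15 fell without preconditioning (-1.94 ± 0.39) and was not called with it, and the difference was called (2.13 ± 0.51; adjusted p = 0.0104). FOS (2.02 ± 0.75 without preconditioning; interaction 4.03 ± 1.03) and FOSB (3.32 ± 0.72; 3.69 ± 0.96) rose more in preconditioned cells, whereas the interaction was not called for ARC (0.59 ± 0.61), HAS2 (-0.05 ± 1.10), F3 (-0.45 ± 0.39), IFIT3 (-0.85 ± 0.56) or H2BC21 (0.25 ± 0.57). Neither the FOS nor the FOSB difference was called with limma-voom or with a replicate block, and that of FOS was not called without control 2. In 7 of 23 immediate early genes the interaction was higher, and in none lower.

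**Figure D4:**
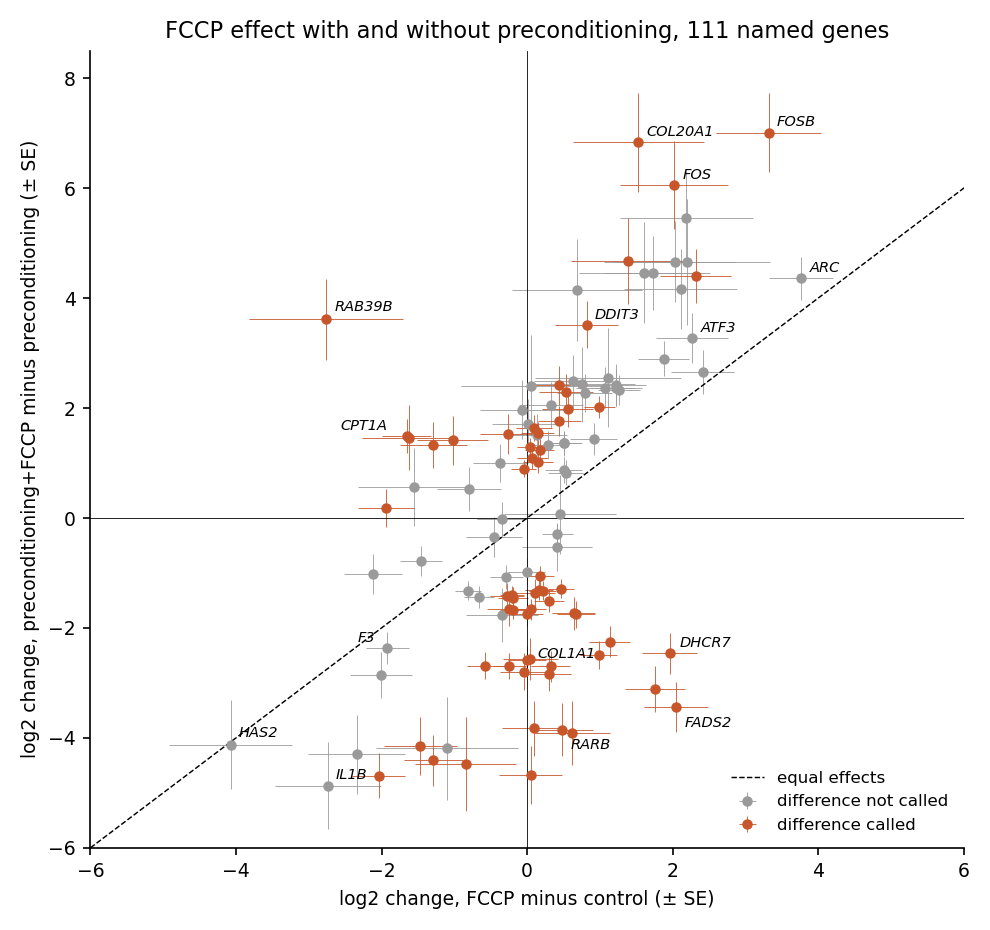
Log2 change with FCCP in preconditioned cells (vertical, preconditioning+FCCP minus preconditioning) against the change without preconditioning (horizontal, FCCP minus control) for the 111 named genes, with bars of 1 SE; orange marks genes whose difference was called, grey the others, and the dashed line marks equal effects. FADS2 and DHCR7 lie at the lower right with opposite signs, COL1A1 near 0 on the horizontal axis, and HAS2 and ARC near the dashed line.

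The count of interactions moved with single libraries. It was 2013 without preconditioning+FCCP 2, 2086 without FCCP 2 and 2076 without FCCP 3, and 4576 without FCCP 1. The FCCP libraries all belonged to the set with more reads aligned to several places and the preconditioning libraries all to the other, and the part of this property in the interaction was not tested beyond a fit with a term for the set, which called 4504.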

How the data were processed

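Poly-A RNA of AC16 cells was sequenced, and the values deposited by the authors are raw read counts per Ensembl gene ID. The submitters' processing notes list HISAT2, HTSeq and the build hg19 with no version; the sources used here do not give the annotation release. Of 63241 IDs, 42338 were given a symbol. Summary rows of the counter were dropped; in the 7 libraries compared, 2.13% to 4.19% of reads lay outside genes, 11.0% to 11.7% overlapped several genes and 3.16% to 8.28% aligned to several places. All 13 libraries were fitted together with 1 term per group by edgeR 4.0.16 (R 4.3.3; default expression filter, TMM scaling, quasi-likelihood test), and p-values were adjusted by the Benjamini-Hochberg method over 16756 genes. Changes are log2 values, with SE the absolute change divided by the square root of F. CPM were computed from the scaled library sizes. Functions were tested on simulated counts. The mitochondrial share was compared by an exact permutation test (scipy 1.17.1).

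The comparison, the members of the 54 gene lists and the rule for named genes were chosen with earlier results of these data known. The rule takes the 12 largest called rises and falls with at least 5 mean CPM and no overlap, for each list described up to 5 called members of smallest adjusted p, and 30 fixed genes; 111 are used, as a few items are not reported here; other genes named were chosen after their values were seen. Lists were described by counts and medians and not tested. Alternatives were other scalings and filters, DESeq2 1.42.0, limma-voom 3.58.1, stricter thresholds, the compared groups alone, a replicate block, the library set as a term or alone, and each library left out.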

Additional observations from a re-analysis of the deposited data

Results flagged for a closer look

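The FCCP effect differed between preconditioned and other cells, by the interaction term of edgeR's quasi-likelihood fit, for 3180 of 16756 genes (19%). Among them were 60 of the 111 named genes (adjusted p between 0.000171 and 0.0468). Apart from the 30 fixed genes, named genes were chosen by their change with FCCP in preconditioned cells. That change is part of the interaction, so a higher share among them is built into the choice. Values are the log2 effect with preconditioning minus that without. Among immediate early genes and the largest rises, it was higher for COL20A1 (5.31), FOS (4.03), FOSB (3.69), HES1 (3.29) and CCDC17 (2.08). Among integrated stress and unfolded protein response genes, it was higher for RAB39B (6.38), DDIT3 (2.70), GDF15 (2.13), CTH (1.98), ADM2 (1.78), ATF4 (1.43), DNAJB9 (1.32), SYVN1 (1.24) and DNAJB11 (1.07). The others higher were CPT1A (3.14), MT-ND1 (3.09), HMOX1 (2.61), MT-ND2 (2.43), SESN3 (1.77), GAS5 (1.54), ULK1 (1.40), IRF7 (1.03), ETFDH (1.02), NDUFV3 (0.94) and NDUFA6 (0.87). Among lipid genes, it was lower for FADS2 (-5.48), HMGCS1 (-4.87), DHCR7 (-4.42), LSS (-3.47), FADS1 (-3.39), ABCA1 (-3.13), FDPS (-2.43) and ACLY (-1.48). Among glycolysis and hypoxia genes, it was lower for SLC16A3 (-3.02), LDHA (-2.61), PFKL (-1.76), HK1 (-1.26) and CA12 (-1.14). Among matrix, contractile and YAP genes, it was lower for COL1A2 (-2.75), COL1A1 (-2.59), MYLK (-2.45), THBS2 (-2.11), CNN2 (-1.81), LAMA4 (-1.74), CRIM1 (-1.72), CALD1 (-1.53), COL5A1 (-1.47) and LAMC1 (-1.19). The others lower were LINC02984 (-4.72), NYNRIN (-4.54), RARB (-4.34), KRT80 (-3.91), COLEC12 (-3.63), IL7R (-3.12), NLRP10 (-2.68), RGS4 (-2.65), BOK (-2.38), PINK1 (-1.47), ICAM1 (-1.42) and CCNB1 (-1.24). None of these 60 changed sign under any of the 22 alternatives in which it was tested, leave-outs included. The number still called was 60 with DESeq2, with a term for the library set and without FCCP 1, 55 with limma-voom, 47 with a replicate block, and 44 to 60 on leaving out 1 library, lowest without FCCP 2. FOS, FOSB, HES1, CCDC17 and COLEC12 lost their call with limma-voom and with the block. HES1 and CCDC17 were also lost on leaving out any 1 library other than FCCP 1 or preconditioning+FCCP 1.

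Within the 4 preconditioning libraries, 1 value lay far from the other 3 for 9 of 114 values tested, by Dixon's 95% critical value, which flags about 1 in 20 groups by chance. In 7 of the 9 the value was that of preconditioning 3. It was low for 3 genes there: HMGCS1 had 230.4 CPM against 464 to 483, DHCR7 had 226 CPM against 276 to 283 and ICAM1 had 47.7 CPM against 81.8 to 88.1 in the other preconditioning libraries. It was high for 4 genes: GOT1 had 89.8 CPM against 83.1 to 83.3, CNN2 had 363 CPM against 261 to 278, BOK had 132 CPM against 95.9 to 97 and HMOX1 had 47.4 CPM against 36.6 to 36.8. In preconditioning 4, MYLK had 205 CPM against 245 to 252. In preconditioning 2, CPT1A had 12.8 CPM against 9.73 to 9.94. All 9 genes were still called without preconditioning 3.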

How the results depend on the processing

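The count of 6594 genes was within 1.5 times of this under other scalings, filters, tools and library sets (5027 to 9097) and was 4022 at an adjusted p under 0.01 and 3857 with at least a 2-fold change. The interaction count of 3180 was 1201 at an adjusted p under 0.01. Same-numbered libraries showed little sign of pairing: the correlations of their deviations from the group means were 0.03, -0.00 and 0.09. Preconditioning+FCCP 1 and 2 correlated best with preconditioning 4 (0.06 and 0.15), and preconditioning+FCCP 3 with preconditioning 3. So few weak correlations cannot show whether the libraries were paired. With the replicate block, 7248 genes were called between the groups and 1897 interactions. Leaving out 1 library gave 5027 to 6146 genes and 2013 to 4576 interactions. The difference in mitochondrial share was 0.369 to 2.92 percentage points on leaving out 1 library, 0.917 from mitochondrial messenger RNA genes alone and 0.951 without ribosomal RNA. Of 102 named genes called, 91 were still called without each of the 7 libraries, 98 with DESeq2 and 101 with library totals, and none reversed. Among the 9 not called, 4 reversed in sign. On leaving out 1 library the log2 changes were -0.030 to 0.46 for GDF15, -0.095 to 0.070 for HSPD1, -0.33 to 0.26 for HSPA1A and -0.49 to 0.90 for MT-CO1. HSPD1 also reversed with library totals (0.063) and a term for the library set (0.28), HSPA1A in the lower-share set (-0.30), and MT-CO1 with a term for the set (-0.40) and in the lower-share set (-0.46). Calls were gained by SQSTM1 with a term for the library set and in the lower-share set, by HK2 with the replicate block in the compared groups, and by MT-ND1 with library totals, with no filter, in the compared groups alone and without preconditioning+FCCP 1. The count for FCCP against control, 590, was 142 to 893 on leaving out 1 library, an alternative chosen after seeing the data. The cause of these changes was not tested. Genes near the detection limit without FCCP, such as COL20A1 and DLL4, rest on few counts.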
